A study of Homo sapiens with 33 samples.

Results

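The cytosolic ribosomal protein genes encode the proteins of the large and the small ribosomal subunit. They were taken from the gene table by symbol, as RPL or RPS followed by a number and, where present, A, X or L, together with RPLP0, RPLP1, RPLP2 and RPSA. The rule found 81 genes, each with 1 row, among the 58293 rows of the table. Of these, 49 belong to the large subunit and 32 to the small subunit. The rule also takes 4 paralogs, RPL3L, RPL10L, RPL39L and RPS27L, and the other 77 genes are called the core genes here. The study examined RNA bound by EZH2, the catalytic subunit of the Polycomb repressive complex PRC2, in K562, a human erythroleukemia cell line. The levels come from 1 library of RIP-seq input RNA, the RNA that entered the immunoprecipitation, from wild-type K562 cells with no antibody. The methods describe the immunoprecipitation from nuclear lysates of fixed cells, but do not say how the RNA of this input library was taken, so the levels may be those of nuclear RNA. Reads on EZH2 RIP-seq fragments come from 1 library each of cytoplasmic, nuclear, nuclear polyA+ and nuclear polyA- RNA, also of wild-type K562 cells. With 1 library per fraction, no error between replicates can be given, and no value of a gene was tested against another condition.

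Each ribosome holds 1 copy of nearly every ribosomal protein, and cells make the proteins of both subunits in matched amounts. In vertebrates many of the mRNAs begin with a C followed by a run of pyrimidines, the 5′ terminal oligopyrimidine (TOP) tract, through which their translation follows growth signals by way of mTOR. The introns of many of these genes encode small nucleolar RNAs (snoRNAs), which guide the modification of ribosomal RNA. Their spliced mRNAs have left many processed pseudogenes in the genome. Loss of 1 copy of several of these genes causes Diamond-Blackfan anemia, a failure of red cell production, which is why the family is often studied in erythroid cells.

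FPKM is the number of read fragments scaled to the length of the transcript and to the depth of the library. Levels are set side by side between genes on this scale. Scaling by length and depth does not correct for base composition, for size selection of the libraries, or for reads removed as duplicates or for low mapping quality. A difference in FPKM between genes is thus not a measured difference in mRNA copies. The values were deposited with a lower and an upper confidence bound, which describe the uncertainty of the estimate within this library only. In bulk RNA, a difference in the number of cells that express a gene and in the RNA per cell cannot be told apart. The erythroid character of the RNA was checked on 12 erythroid markers, which ranged from 4.73 for HBA1 to 218 for HBG2, and 9 of them reached an FPKM of 10. HBE1, the embryonic globin, was at 132 and GATA1, an erythroid transcription factor, at 15.3. Of 8 markers of lymphocytes, hepatocytes and muscle, 7 were below an FPKM of 1 and CD3D was at 6.29.

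The starts of several genes on which the results turn are shown first, since most genes of the family with an annotated start begin with a TOP tract. The windows run from 5 bases before the annotated start to the 20th transcribed base in RefSeq (GRCh38.p14), with a tract of a C at the start base and at least 4 further pyrimidines in capitals. Where a gene has several starts, as RPS19 has, the start with the longest run is shown. The first set holds genes with high, middle and low levels that carry a tract.
RPS24 (chr10:78033858-78033882, plus strand): tggttCTCTTTTCCTCCTTggctgt
RPS6 (chr9:19380217-19380241, minus strand): tggccCTCTTTTCCgtggcgcctcg
RPLP2 (chr11:809962-809986, plus strand): gccttCCTTTTCCTCCCTgtcgcca
RPS18 (chr6:33272070-33272094, plus strand): ccgctCTCTCTTCCacaggaggcct
RPS19 (chr19:41860250-41860274, plus strand): tcgttCCCTTTCCCCTggctggcag
RPS14 (chr5:150449720-150449744, minus strand): ccactCTCTCTTTCCggtgtggagt
RPL39 (chrX:119791611-119791635, minus strand): agcttCCCTCCTCTTCCTTTCTCCg
RPS16 (chr19:39435930-39435954, minus strand): gctttCCTTTTCCggttgcggcgcc

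The second set holds genes without a tract at the annotated start. RPS26, RPS28 and RPS29 were among the lowest core genes, and RPS27L and RPL10L are paralogs.
RPS26 (chr12:56041913-56041937, plus strand): acctcgattttcttccgccatccgg
RPS28 (chr19:8321491-8321515, plus strand): acgtgactcctctccgccagaccgc
RPS29 (chr14:49598691-49598715, minus strand): gcagctggcagcggtggttgtttct
RPS27L (chr15:63157458-63157482, minus strand): cgagcgcagatcgcttgcagcttgc
RPL10L (chr14:46651762-46651786, minus strand): taagagagcgcattttgacttcgag

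Nearly all genes of the family were abundant in the input RNA. Of the 81 genes, 78 reached an FPKM of 10, which 7.37% of all rows of the table did, and 66 reached an FPKM of 100, which 0.463% of all rows did. An FPKM of 1 was reached by 79 genes and by 21.8% of all rows. The median FPKM of the 81 genes was 175.6, with quartiles of 114.2 and 230.3, whereas the median of all rows was 0.068. The family made up 6.77% of the summed FPKM of the table. Of the 100 rows with the highest FPKM, 25 were ribosomal protein genes, and of the 200 highest, 57 were.

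**Figure D1:**
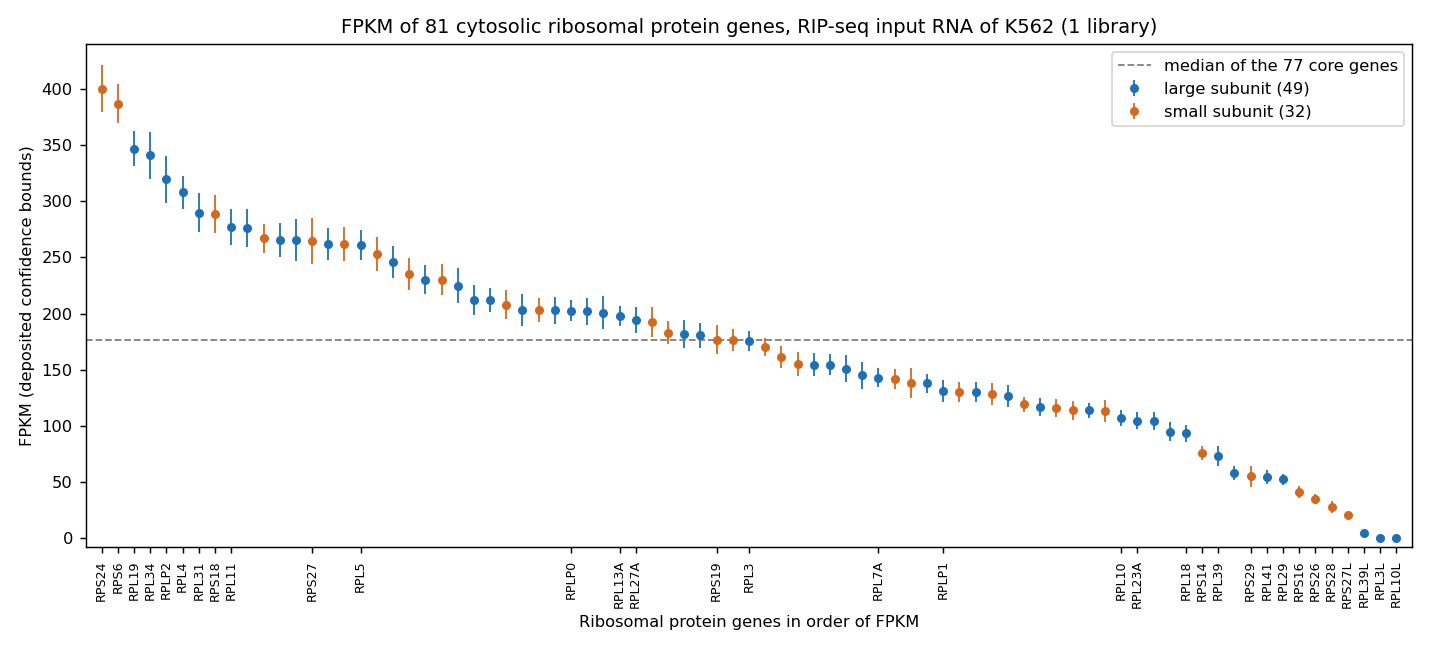
FPKM of the 81 ribosomal protein genes in descending order, with the deposited confidence bounds as bars and the median of the 77 core genes as a dashed line, for 1 library, and with a selection of the genes named on the axis. The core genes run from RPS24 at 400.0 to RPS28 at 27.9, large and small subunit genes are found along the whole order, and the 4 paralogs are the 4 lowest.

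The core genes spread over 14.3-fold, from 27.9 for RPS28 to 400.0 for RPS24. The middle of them lay close together: their median was 176.9 and their quartiles 119.5 and 235.5. Of the 77 core genes, 66 were within 2-fold of the core median, 2 were above and 9 were below. By level, 6 core genes had an FPKM of at least 300, 26 were from 200 to 300, 34 from 100 to 200 and 11 under 100. The standard deviation of log2(FPKM + 1) was 0.79 over the core genes and 1.49 over all 81 genes, which include the 4 paralogs.

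The deposited bounds were narrow against this spread. Over the core genes, the bounds lay a median of 6.34% of the FPKM away from the estimate on each side, from 4.47% for RPL13A to 19.8% for RPS28. Of the 3240 pairs of genes, 2823 (87.1%) had bounds that did not overlap. Neighbours in the order mostly could not be separated, since the bounds overlapped in 74 of the 80 neighbouring pairs. Breaks in the order lay, among others, between RPS6 and RPL19, RPL18 and RPS14, RPL29 and RPS16, RPS27L and RPL39L, and RPL39L and RPL3L. The bounds of 35 core genes lay wholly above the core median, those of 35 wholly below it and those of 7 around it.

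The highest level was that of RPS24, a protein of the small subunit needed for the processing of its rRNA, at 400.0 (bounds 379.1 to 421.0). RPS6, the substrate of the S6 kinases in the small subunit, followed at 387.0 (369.5 to 404.5). These 2 genes overlapped in their bounds and were the only core genes more than 2-fold above the median. Next came 4 genes of the large subunit: RPL19 at 346.6 (331.0 to 362.2), RPL34 at 340.9 (319.9 to 362.0), the stalk gene RPLP2 at 319.5 (298.4 to 340.5) and RPL4 at 308.2 (293.6 to 322.8). RPL31 was at 290.0 and RPS18, a protein of the head of the small subunit, at 288.8, with overlapping bounds. Thus 3 of the 8 highest genes were of the small subunit and 5 of the large.

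At the low end, 9 core genes were under 0.5 times the core median, a limit of 88.5. RPS28 was the lowest at 27.9 (bounds 22.4 to 33.4), followed by RPS26 at 35.5 (31.2 to 39.8), RPS16 at 41.2 (36.1 to 46.3) and RPL29 at 52.6 (47.5 to 57.7). Of the other 5, named here after their values were seen, RPL41 was at 54.9, RPS29 at 55.4, RPL39 at 73.3 and RPS14 at 76.0. RPL41 encodes the shortest protein of the family, with a coding length of 75 bp, and RPL39, at the exit tunnel of the large subunit, has 153 bp. The bounds of RPL41, RPS29 and RPL29 overlapped, as did those of RPS14 and RPL39. Just above the limit stood RPL18 at 93.5 (85.8 to 101.2), whose lower bound was below it.

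The 4 paralogs were the 4 lowest genes of the family. RPL10L, an intronless copy of RPL10 that is known from the testis, was listed at 0 with both bounds at 0, whereas RPL10 was at 107.4. RPL3L, the striated muscle form of RPL3, was at 0.087 (0 to 0.414) against 175.6 for RPL3. RPL39L was at 5.02 (3.58 to 6.47), which was 6.86% of RPL39 at 73.3. RPS27L, a target of p53, was at 21.2 (18.0 to 24.4), which was 8.0% of RPS27 at 264.8. The bounds of each paralog and its partner lay apart in all 4 pairs. Outside the rule, RPL36AL was at 54.3, RPL7L1 at 26.4, RPL26L1 at 16.7 and RPL22L1 at 15.1, all under the core median.

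The subunits had similar medians. The median FPKM was 188.3 over 46 core genes of the large subunit and 170.4 over 31 of the small subunit. Over all 81 genes, the difference of the medians of log2(FPKM + 1) was 0.12, higher in the large subunit, but the difference of the means was -0.14. Of the 4 paralogs, 3 belong to the large subunit. Among the core genes, those of the small subunit spread further, with a standard deviation of log2(FPKM + 1) of 0.93 against 0.69 in the large subunit. With the paralogs included the order was the opposite, at 1.03 in the small and 1.73 in the large subunit. The highest and the lowest core gene were both of the small subunit.

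Within the large subunit, the 3 stalk genes encode proteins that recruit translation factors, with RPLP0 as the base and RPLP1 and RPLP2 as its partners. RPLP2 was at 319.5, RPLP0 at 202.7 (193.2 to 212.2) and RPLP1 at 131.3 (121.5 to 141.2), with bounds apart in each of the 3 pairs. Proteins of RPLP1 and RPLP2 bind the base as dimers, but the FPKM of their genes differed 2.43-fold here. RPL5 and RPL11, which form the 5S ribonucleoprotein particle with 5S rRNA and inhibit MDM2 when ribosome assembly fails, were at 260.8 (247.5 to 274.1) and 277.2 (261.5 to 293.0), with overlapping bounds. RPL3, at the peptidyl transferase centre, was at 175.6 and RPL10, which joins late in assembly, at 107.4.

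RPS19 and RPS14 are the small subunit genes best known from red cell disease, RPS19 from Diamond-Blackfan anemia and RPS14 from the myelodysplastic syndrome with loss of 5q. RPS19 was at 176.9 (163.9 to 189.9), the median of the core genes, and RPS14 was at 76.0 (69.9 to 82.1), with bounds apart. The 17 genes on the list of Diamond-Blackfan anemia genes had a median of 176.9, against 178.7 over the other 60 core genes. They covered the full range of the core genes, from RPS28 and RPS26 at its low end to RPS24 at its top.

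Some constituents of the ribosome are outside the naming rule. RACK1, a scaffold protein of the small subunit, was at 236.7 (226.2 to 247.2). FAU, which encodes RPS30 fused to a ubiquitin-like protein, was at 79.1. RPS27A, a member that is fused to ubiquitin, was at 161.4.

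**Figure D2:**
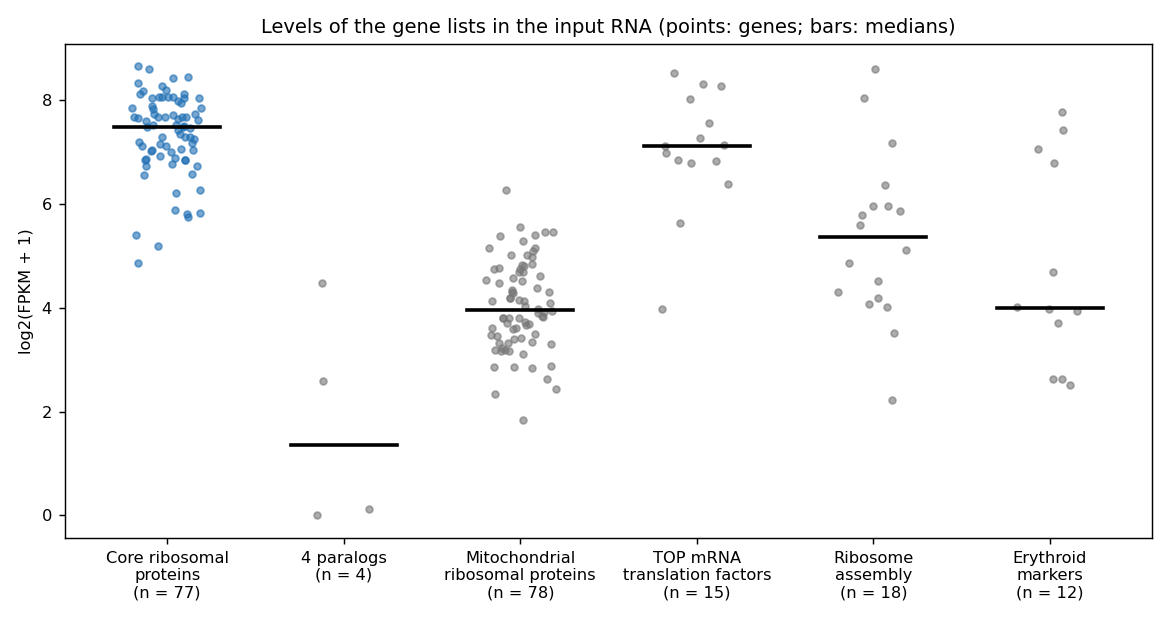
Levels as log2(FPKM + 1) of the core ribosomal protein genes, the 4 paralogs and 4 further gene lists in 1 library, with 1 point per gene and the median as a bar. The median of the core genes, 7.48, lay above those of the mitochondrial ribosomal proteins at 3.96, the TOP mRNA translation factors at 7.11, the ribosome assembly genes at 5.35 and the erythroid markers at 4.00.

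The genes of the mitochondrial ribosome, which translates the mRNAs of the mitochondrial genome, were far lower. Their 78 genes had a median FPKM of 14.5, from 2.57 for MRPL57 to 76.2 for MRPL20, and 57 of them reached an FPKM of 10. The median of log2(FPKM + 1) was 3.51 higher in the 81 cytosolic genes. The lists overlapped at their edges: 9 core genes were below MRPL20 and 13 mitochondrial genes were above RPS28. Of the 9, RPS14 and RPL39 overlapped MRPL20 in their bounds. The next mitochondrial gene, MRPS22, was at 45.9, and only RPS16, RPS26 and RPS28 of the core genes were below it.

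Translation factors on a list of genes with TOP mRNAs were nearer to the family. Their tracts could be looked up for 10 of them only, and 9 of these had one. The 15 genes had a median of 137.3, from 14.8 for EIF3F to 365.6 for PABPC1, the poly(A)-binding protein. EEF1A1, the elongation factor that delivers tRNA, was at 317.3 and EEF2, the translocase, at 258.6. The 18 ribosome assembly genes had a median of 40.4. NPM1 at 388.7 and NCL at 260.6, the abundant nucleolar proteins, were the highest of them and RRP9, a U3 snoRNP protein, was the lowest at 3.64. All 15 translation factors and 17 of the 18 assembly genes reached an FPKM of 10.

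The snoRNAs in the introns of the family were also looked up. Of the 81 genes, 28 held the whole span of at least 1 snoRNA row of the table, 19 of them in the large and 9 in the small subunit. These 59 snoRNA rows, 41 C/D and 18 H/ACA, all lay on the strand of their host in GENCODE 44. RPL4, RPL7A, RPL13A and RPL23A held 4 each. The hosts had a median FPKM of 188.8, against 154.6 in the 49 core genes with none. Over all 81 genes, the median of log2(FPKM + 1) was 0.32 higher in hosts.

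The snoRNA rows ranged from 0 to 2139. The snoRNA rows inside ribosomal protein genes had a median FPKM of 17.2, whereas the median of the other snoRNA rows of the table was 0. Of the 59, 35 had an FPKM of at least 10, which 7.37% of all rows of the table did, and 22 were below 0.001. The bounds were wide, and the lower bound was above 0 for 18 of the 59 and for 26.5% of all rows. By their bounds the snoRNA rows were thus near the share of the whole table. SNORD24, a C/D snoRNA in RPL7A, was at 2139 (1435 to 2844), the highest value of the whole table, while RPL7A itself was at 143.0. The other snoRNA rows of RPL7A, SNORD36A, SNORD36B and SNORD36C, were at 94.7 to 112.8 with lower bounds of 0. Such rows are very short and the libraries were size-selected, so their FPKM is no measure of snoRNA abundance against the host. Of the 9 snoRNA rows above their host, bounds lay apart in 3. Reads of a mature snoRNA and of the intron of its unspliced host cannot be told apart in these values.

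TOP tracts at the annotated starts were counted in the RefSeq promoter table, which holds 64 of the 81 genes. RPL23, RPL23A, RPL30, RPL37, RPL39L, RPL3L, RPL5, RPL7, RPL8, RPS15A, RPS2 and RPS20 are among those with no entry in it. A C at the start base followed by at least 4 pyrimidines was present at a start of 46 of the 64 genes (71.9%), and of 5.14% of the 27305 genes of the table. All 46 were core genes. When the tract could begin within 5 bases of the annotated start, 53 of the 64 genes had one, and 25.2% of all genes. Of the mitochondrial ribosomal protein genes, 6 of 69 (8.70%) had a tract at the start base, and of the translation factors on the TOP list, 9 of 10.

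**Figure D3:**
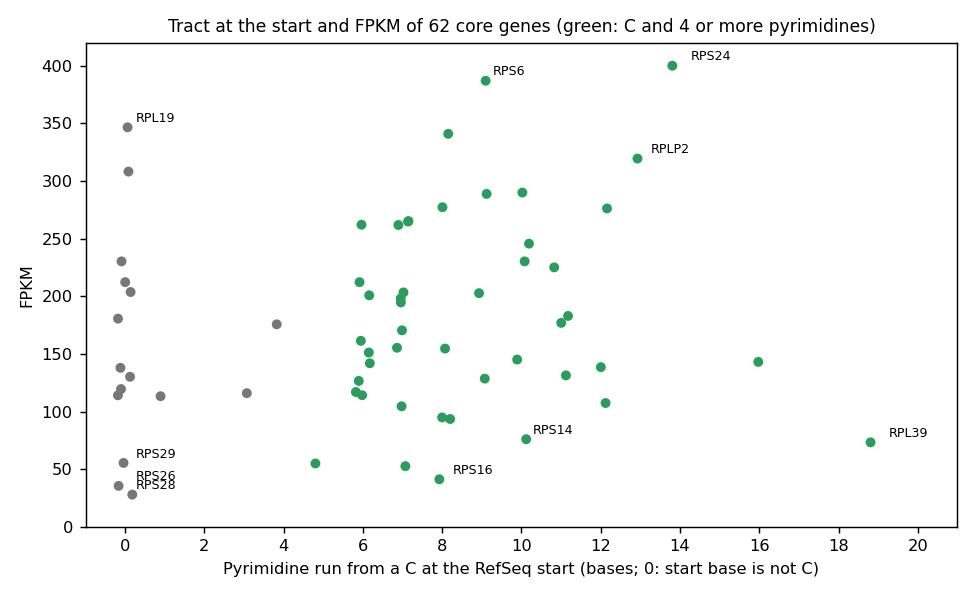
FPKM of 62 core genes with a RefSeq start against the length of the pyrimidine run from a C at the start, in bases. For a gene with several starts the longest run is taken, and 0 means that no start base is a C. Green points carry a tract of a C and at least 4 pyrimidines, and they spread from RPS16 at 41.2 to RPS24 at 400.0, while the points without a tract spread from RPS28 at 27.9 to RPL19 at 346.6.

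The tracts were 5 to 19 bases long, with a median of 8, and the longest was that of RPL39. The 46 core genes with a tract had a median FPKM of 173.7, and the 16 without one had a median of 134.0. The ranges nearly coincided, at 41.2 to 400.0 and 27.9 to 346.6. In the sequences shown above, RPS24 and RPS16 each carry a tract, although their levels were at opposite ends. RPS26, RPS28 and RPS29 lack one at the annotated start, and a start shifted by a few bases would give RPS28 one, since its window holds the run ctcctctcc after the start. The window of RPS26 also holds a run, cttcc, which begins just beyond the 5 bases allowed in the looser count. These counts depend on the annotated start and not on starts measured in K562.

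Further motifs were searched on both strands in the window from 250 bases before to 50 bases after each start. CCGGAA, the core of the sites of ETS factors, was in a window of 37 of the 64 genes (57.8%) and of 20.1% of all genes, while 62.3% of the mitochondrial ribosomal protein genes had it. Read on the other strand as TTCCGG, it can overlap the end of a TOP tract, as in RPS14 and RPS16. AAGATGG, the core of the sites of YY1, was in 8 of the 64 genes (12.5%), in 7.11% of all genes and in 34.8% of the mitochondrial genes. TATAA was in 13 of the 64 genes (20.3%) and in 24.2% of all genes.

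The sequence that these genes share with other places of the genome was measured, since the authors removed alignments with a mapping quality under 20. Each 100-base stretch of the canonical GENCODE 44 transcript that overlaps the coding sequence was searched for exact copies on either strand outside the gene. No copy was found for any stretch in 22 of the 77 core genes, while in 18 over 50% of the stretches had one. For RPL21 this share was 100%, for RPL39 98.1%, for RPS27 94.1%, for RPL7 88.8% and for RPS28 85.5%. Over all stretches of the transcript, untranslated parts included, the share was 16.8% for RPS28, 33.1% for RPS26 and 92.8% for RPL39. The study describes paired reads longer than 100 bases, so these shares are not the shares of reads that cannot be placed.

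**Figure D4:**
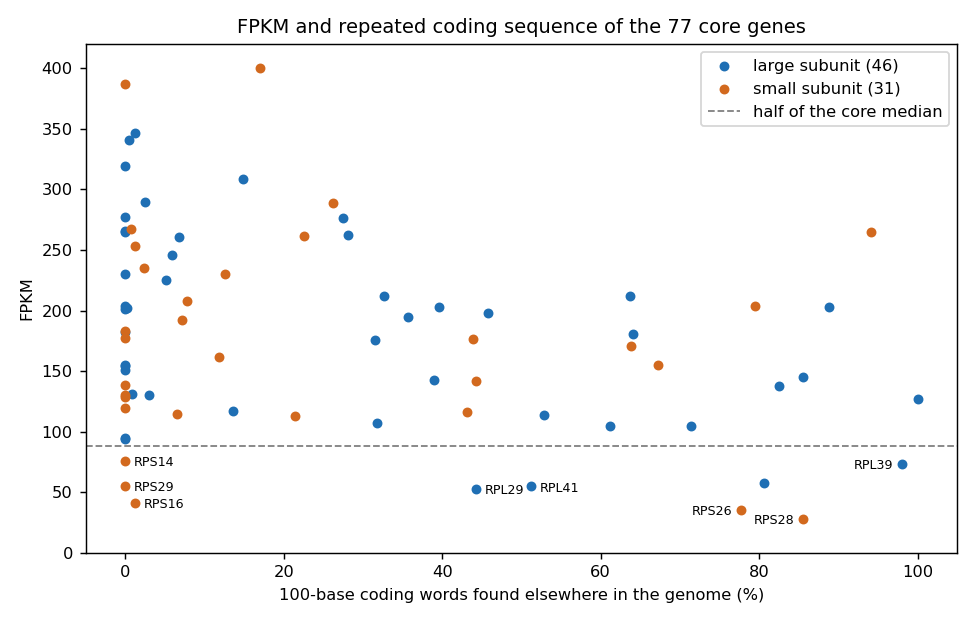
FPKM of the 77 core genes against the share of 100-base stretches of their coding sequence with an exact copy elsewhere in the genome, in percent, coloured by subunit, with 8 of the 9 genes under 0.5 times the core median named. Of the 9 genes under the dashed line, 5 lie to the right of 50%, while RPS27 reaches 264.8 at a share of 94.1%.

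Of the 9 core genes under 0.5 times the core median, 5 were among these 18, RPS28, RPS26, RPL41 and RPL39 being 4 of them. RPS14 and RPS29 had no copied stretch, RPS16 had 1.22% and RPL29 had 44.3%. The median FPKM was 179.4 over the 26 core genes with at most 1% of stretches copied, 202.7 over the 33 with more than 1% and up to 50%, and 132.2 over the 18 with more than 50%. Across the 77 core genes, the share correlated with log2(FPKM + 1) at r = -0.33 and with FPKM at rho = -0.22. With the share over the whole transcript, the values were r = -0.19 and rho = -0.19. RPS27, RPL6 at 212.2, RPS3A at 203.3, RPL7 at 203.2 and RPL17 at 180.6 were above the core median with most of their coding sequence copied. The part of copied sequence in the levels was not tested.

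The levels also moved with base composition. The 18 core genes with a coding GC content over 55% had a median FPKM of 122.7, and the 59 others had a median of 200.8. Across the 77 core genes, GC content correlated with log2(FPKM + 1) at r = -0.38 and with FPKM at rho = -0.34. The 12 core genes on chromosome 19 had a median of 120.9 against 192.5 for the 65 on other chromosomes, and 3 of them, including RPS16 and RPS28, were under 0.5 times the core median. Coding length gave r = 0.24 and rho = 0.07 over the whole core. The shortest coding sequences were those of RPL41 (75 bp), RPL39 (153 bp), RPS29 (168 bp) and RPS28 (207 bp). All of these genes were under 0.5 times the core median, whereas RPL38, with 210 bp, was at 265.2. All these values describe genes of 1 library, which are not independent replicates. The parts of base composition and of coding length were not tested.

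The pseudogene rows were low. The table holds 1119 rows named as numbered pseudogenes of 76 of the 81 genes, with up to 93 for RPL23A. Of these rows, 602 (53.8%) were at 0, 92 had an FPKM of at least 1 and 2 had an FPKM of at least 10, namely RPS2P5 at 19.3 and RPL9P9 at 11.05. Of all 58293 rows, 24373 were at 0, 21.8% had an FPKM of at least 1 and 7.37% an FPKM of at least 10. Alignments with a mapping quality under 20 had been removed, so reads that fit parent and pseudogene equally well may be missing from both rows. Low values here therefore do not show that the pseudogenes are not transcribed. The parents RPS2 and RPL9 were at 176.8 and 137.9. The summed FPKM of all pseudogene rows was 2.64% of that of the 81 genes. The number of pseudogene rows of a core gene was nearly unrelated to its level, with r = -0.03 and rho = 0.05 across the 77 genes. Read-through rows were also low, at 2.33 for RPS10-NUDT3 and 0.505 for RPL17-C18orf32, but reads on shared exons cannot be told apart between such rows and the member.

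Of the 900 EZH2 RIP-seq fragments in the count tables, 2 (0.222%) lay in the span of a ribosomal protein gene, 1 in RPL27A and 1 in RPS19. The study describes a longer list of fragments, and those outside the count tables were not analysed here, so the counts hold for the listed fragments. Thus 2 of the 81 genes (2.47%) held a fragment, whereas 177 of the 4266 symbols with an FPKM of at least 10 (4.15%) did. The median span was 5.38 kb over the 81 genes and 31.2 kb over all rows with an FPKM of at least 10. Both hosts, RPL27A and RPS19, had spans longer than the median of the 81 genes. Widening each span by 5 kb on both sides added no fragment. RPL27A, a large subunit protein gene at an FPKM of 194.7 (182.9 to 206.4), carried a fragment of 902 bp at chr11:8688136-8689037 (GRCh38). All of it lay in the last exon of the coding transcript RPL27A-201 (8685678 to 8689872) and none of it in coding sequence. The fragment in RPS19 was 2249 bp long, at chr19:41864309-41866557, with 26.3% of its bases in an exon of the transcript RPS19-204, which is annotated as a target of nonsense-mediated decay, none in coding sequence and the rest in introns. Neither fragment held an annotated snoRNA of its host. Fragments were matched to genes by position alone, without strand. Whether their RNA came from the strand of the host was thus not tested.

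The fragment in RPL27A had 41 cytoplasmic and 142 nuclear reads, and of the polyA libraries of nuclear RNA it had 89 reads in the bound (polyA+) and 128 in the unbound (polyA-) one. That in RPS19 had 53, 147, 147 and 104 reads in the same order. Both had more reads than the median fragment in every library, with no correction for the length of the fragments. They ranked highest in cytoplasmic RNA, where the median over all 900 fragments was 2 reads and 37 and 20 fragments had more reads than those in RPL27A and RPS19. Per kb, nuclear reads were 157.4 in RPL27A and 65.4 in the longer RPS19 fragment.

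**Figure D5:**
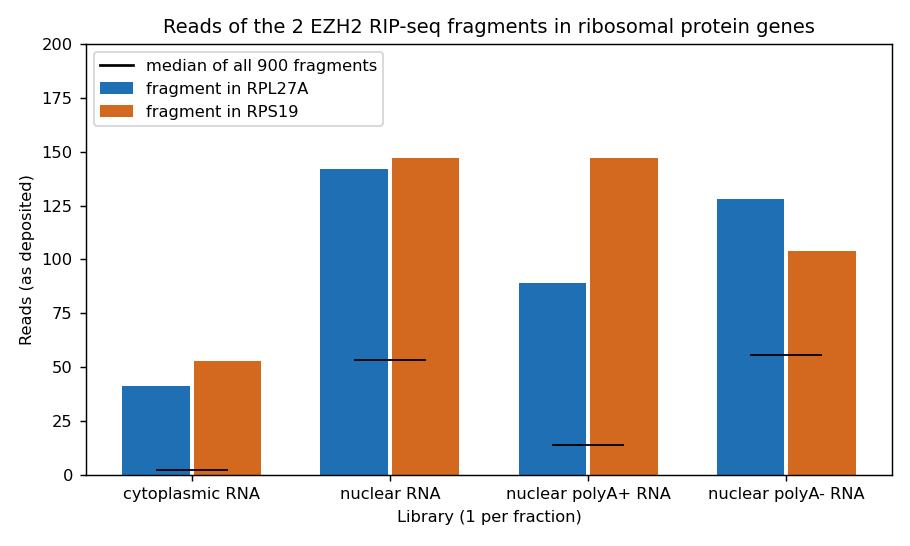
Reads as deposited on the fragments in RPL27A and RPS19 in the 4 fraction libraries, 1 library each, with the median of all 900 fragments as a line. Both fragments had fewer reads in cytoplasmic RNA, 41 and 53, than in nuclear RNA, 142 and 147, and all bars stand above the medians of 2, 53.5, 14 and 55.5 reads.

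Both fragments had more nuclear than cytoplasmic reads as deposited, as did 88% of all fragments at an adjusted p under 0.05, whereas 0.111% had more cytoplasmic reads. The ratio was 3.46 in RPL27A (exact 95% Clopper-Pearson interval 2.43 to 5.03, adjusted p = 6.7e-14, exact binomial test, two-sided, adjusted by Benjamini and Hochberg over 900 fragments) and 2.77 in RPS19 (2.01 to 3.87, adjusted p = 3.8e-11, same exact test). These ratios were low among the fragments: of the 629 with at least 30 reads in both libraries together, 40 (6.36%) had a lower nuclear share than RPL27A and 33 (5.25%) a lower one than RPS19. The direction holds for reads as deposited. Dividing each library by its total over the 900 fragments lowers every ratio by the same factor of 13.3 and gives 0.26 and 0.21, which restates the low rank and is no separate test. The tests compare pairs of libraries, not conditions, and the intervals cover counting error only.

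Between the nuclear polyA fractions, the fragments went opposite ways as deposited. The fragment in RPL27A had more polyA- reads, with a ratio of polyA- to polyA+ reads of 1.44 (1.09 to 1.91, adjusted p = 0.014, same exact test), as did 68% of all fragments. That in RPS19 had more polyA+ reads, with a ratio of 0.71 (0.54 to 0.92, adjusted p = 0.011, same exact test), as did 6.89% of all fragments. After division by the totals over the 900 fragments, which lowers every ratio by a factor of 1.83, the ratio was 0.79 in RPL27A, with the direction turned and no longer past the threshold (adjusted p = 0.13, same exact test), and 0.39 in RPS19. Of the 686 fragments with at least 30 reads in both polyA libraries together, 152 (22.2%) had a lower polyA- share than RPL27A and 59 (8.60%) a lower one than RPS19.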

How the data were processed

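K562 RNA was sequenced by the authors after rRNA depletion with a stranded kit, with 1 library per group. Reads were trimmed with TrimGalore and mapped with STAR to GRCh38 with GENCODE 26, and PCR duplicates and alignments with a mapping quality under 20 were removed. The authors deposited FPKM values with confidence bounds per gene, made with cuffdiff, and unnormalized read counts from featureCounts per EZH2 RIP-seq fragment. Library totals are not given with either, so depth is unknown for the FPKM values; the counts sum to 7929 to 106051 reads over the 900 fragments.

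Here, gene spans were taken from the FPKM table, and transcripts from GENCODE 44. Levels were summarised as medians and as log2(FPKM + 1), with no filter. Each fragment was tested with a two-sided exact binomial test of equal counts in 2 libraries, with Benjamini-Hochberg adjustment over 900 fragments and a threshold of 0.05, after it had been tested on simulated data. Starts came from RefSeq. Genes were named by rule: the 8 highest and 8 lowest members, the paralogs with their partners, the stalk genes, RPL5, RPL11, RPS14, RPS19, the hosts of fragments and the members with most snoRNAs. Some genes that this rule names are not reported here. Other names were picked with their values in view. The members and lists were chosen with earlier results of these data known. Python 3.11.15, numpy 2.4.6, pandas 2.3.3, scipy 1.17.1 and matplotlib 3.10.9 were used.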

Additional observations from a re-analysis of the deposited data

How the results depend on the processing

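The family median kept within the bounds of the median gene under every alternative run, at 173.0 to 182.9. The latter was without the genes with over 50% of their coding stretches copied, an alternative chosen after seeing the data. The count of genes at an FPKM of at least 10 was 74 to 79 under other thresholds. The standard deviation of log2(FPKM + pseudocount) moved from 1.49 to 1.87 with a pseudocount of 0.1, 0.79 without the 4 paralogs and 1.00 with genes of at least 1 FPKM, since the paralogs at or near 0 set it. The difference of the subunits was -0.14 with means. The excess over the mitochondrial genes was 3.59 with a pseudocount of 0.1 and 3.02 with means. Both scalings move all fragments by the same factor, so they restate the place of the fragments in the list. Scaled to the sum over the fragments, 0 of the 2 fragments were higher in nuclear RNA and both were lower, with ratios of 0.26 in RPL27A and 0.21 in RPS19. With the libraries scaled to a median fragment ratio of 1, these were 0.16 and 0.13 and the count was again 0. The count higher in polyA- RNA fell from 1 to 0 under both scalings, with ratios in RPL27A of 0.79 and 0.41. No scale was given by library totals, so these directions are relative to the listed fragments. Depth limits the ratios to their counting intervals, and 1 library per group leaves the error between samples unknown. No paired analysis was possible because each group had 1 library. No replicate could be left out.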
